A study of Mus musculus with 12 samples.

Results

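Lactate dehydrogenase genes and the genes of the main lactate carriers of muscle were compared between PTRF knockout and wild-type mouse skeletal muscle. The 6 genes, and the lists of other genes below, were chosen by name with earlier results of these data known. Ldha, Ldhb and Ldhd encode lactate dehydrogenase subunits and a D-lactate dehydrogenase. Slc16a1 and Slc16a3 encode the carriers MCT1 and MCT4, and Bsg encodes their partner basigin. All 6 of the 6 were found by exact symbol among the 21936 genes listed, and all were at 1 TPM or more in each library. TPM gives a gene's share of all transcripts in its library, corrected for transcript length, so levels of different genes can be set side by side.

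The samples were polyadenylated RNA from skeletal muscle of 3-month-old C57BL/6N mice, with soleus or quadriceps given as the tissue. The wild-type mice are labelled normal and the mice with the PTRF knockout are labelled as having muscular dystrophy. PTRF, now named cavin 1 and encoded by Cavin1, is a coat protein of caveolae, the small pits of the plasma membrane. The 12 deposited samples held only 6 different sets of values, 3 wild type and 3 knockout, because every soleus sample had a quadriceps sample, alike in genotype and number, with identical values.

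The muscle from which the 6 libraries came is therefore unknown, and each library was counted as 1 sample. Cavin1 was at 40.0 to 45.2 TPM in the wild-type libraries and at 0.0254 to 0.284 TPM in the knockout libraries, as labelled. Markers of both fibre types were present: the 7 slow-fibre genes summed to 17619 to 25623 TPM in wild type and 18054 to 21796 TPM in knockout, and the 9 fast-fibre genes to 24929 to 29024 TPM and 28317 to 32263 TPM. Wild-type library 2 stood apart in Myh4, the fast type IIB myosin, with 193.5 TPM against 6.43 and 4.21 TPM in the other wild-type libraries, and knockout library 1 in neutrophil genes. The labels do not say that numbered samples came from separate animals, so p-values measure only how these samples vary, and that variation may be technical. Transcripts of the mitochondrial genome took 43.0% to 52.3% of the TPM in wild type and 39.0% to 45.7% in knockout, and the median of all genes tested was 0.33 higher in knockout on the log2 scale. For this reason each of the 6 genes is given on the deposited scale and again after a trimmed-mean rescaling. So are the counts of calls over the lists of pyruvate entry, NADH shuttle and regulator genes, with all libraries kept. The rescaling brings the bulk of genes in all libraries to one level and leaves that median at -0.02.

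As background, L-lactate dehydrogenase is a tetramer of A and B subunits that interconverts pyruvate and lactate with NADH and NAD+. The A subunit, from Ldha, prevails in fast glycolytic fibres, and the B subunit, from Ldhb, prevails in heart and in slow oxidative fibres. MCT1 carries lactate together with a proton, has a high affinity and is associated with uptake in oxidative fibres, whereas MCT4 is associated with export from glycolytic fibres. Both need basigin to reach the plasma membrane. The D-lactate dehydrogenase from Ldhd is a mitochondrial enzyme for the other mirror form of lactate, which arises from methylglyoxal.

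The region before the start of Ldha and Ldhb is shown because the ratio of these 2 genes differed between the groups without overlap and because Ldha is a textbook target of HIF-1 and Myc, factors that bind short ACGTG-type sites. Sequences are the 250 bases before each RefSeq start in GRCm38.p6, written on the strand of the gene. Capitals mark ACGTG or GCGTG on either strand. Ldha has 2 annotated starts in that table, and the gene-level values do not tell which was used.
Ldha, first start, chr7:46845554-46845803, plus strand: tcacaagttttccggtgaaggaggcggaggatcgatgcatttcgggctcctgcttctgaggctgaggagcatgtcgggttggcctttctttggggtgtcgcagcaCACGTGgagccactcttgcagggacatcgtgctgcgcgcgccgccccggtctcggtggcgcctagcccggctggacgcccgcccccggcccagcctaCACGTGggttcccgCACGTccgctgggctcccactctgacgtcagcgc
Ldha, second start, chr7:46846832-46847081, plus strand: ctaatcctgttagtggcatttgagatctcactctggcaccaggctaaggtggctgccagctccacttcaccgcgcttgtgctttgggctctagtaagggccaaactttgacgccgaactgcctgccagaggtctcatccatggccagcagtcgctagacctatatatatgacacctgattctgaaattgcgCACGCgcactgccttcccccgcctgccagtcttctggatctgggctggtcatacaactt
Ldhb, chr6:142507958-142508207, minus strand: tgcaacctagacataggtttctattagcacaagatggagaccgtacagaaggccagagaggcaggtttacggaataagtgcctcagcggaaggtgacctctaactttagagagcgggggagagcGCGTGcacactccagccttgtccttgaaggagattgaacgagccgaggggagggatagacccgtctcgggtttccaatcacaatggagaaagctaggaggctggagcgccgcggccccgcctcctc

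None of the 3 windows overlapped an annotated exon. Both Ldha windows lie within the span of the gene in GENCODE, and the Ldhb window lies just before its gene. The first Ldha window held 3 marked stretches, of which 2 read the same on both strands (CACGTG), and the second Ldha window and the Ldhb window held 1 each, of the GCGTG kind. Among all 32851 windows of this length, 16.6% held ACGTG, 28.2% held GCGTG and 38.6% held either. AAGGTCA, the site of oestrogen-related receptors, was in none of the windows of the 5 members in the table and in 4.08% of all windows. A match describes letters in the window and does not show that a factor was bound.

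Among the dehydrogenases, Ldhb fell to 48.6% of its wild-type level in the knockout, whereas no change of Ldha passed the test. Ldhb (ENSMUSG00000030246, protein coding, GRCm38 chr6:142490249-142507957, minus strand) was at 957, 904 and 1211 TPM in wild-type libraries 1 to 3 and at 418, 537 and 538 TPM in knockout libraries 1 to 3. Each knockout library was below each wild-type library. The means were 1024 ± 164 and 498 ± 68.8 TPM (SD, n = 3 each), a log2 fold change of -1.04 (SE 0.17, 95% interval -1.42 to -0.66) with an adjusted p of 0.000884 in limma.

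Few genes fell by more. Of the 11056 genes tested, 43 had a lower log2 fold change than Ldhb. On the deposited scale 2.92% of all genes tested were called lower and 36.3% higher, and 4.83% had all knockout libraries below all wild-type libraries, against 48.7% with all above. After trimmed-mean rescaling 14.4% of genes were lower and 13.8% higher, and the Ldhb log2 fold change was -1.45. Ldhb passed under each of the 16 alternative settings or left-out libraries, with log2 fold changes from -1.45 to -0.91 and adjusted p from 0.000111 to 0.0101.

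Ldha (ENSMUSG00000063229, protein coding, chr7:46841475-46855627, plus strand) was at 345, 365 and 416 TPM in wild type and at 466, 529 and 362 TPM in knockout. Knockout library 3 lay within the wild-type range and the other 2 knockout libraries lay above it. The log2 fold change was 0.26 (SE 0.17, 95% interval -0.12 to 0.63) with an adjusted p of 0.240, and it turned to -0.15 after trimmed-mean rescaling (adjusted p = 0.516). The summed level of Ldha and Ldhb was 1302, 1269 and 1627 TPM in wild type and 884, 1066 and 900 TPM in knockout, with no overlap (exact permutation test, two-sided p = 0.1, which is the least that 3 against 3 allows).

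Ldhd (ENSMUSG00000031958, protein coding, chr8:111623785-111630374, minus strand) was at 10.5, 10.9 and 11.4 TPM in wild type and at 15.1, 17.7 and 12.7 TPM in knockout. Each knockout library was above the wild-type range, as for 48.7% of all genes. The log2 fold change of 0.42 (SE 0.15) was close to the median of 0.33 over all genes, and its adjusted p was 0.0449. After trimmed-mean rescaling it was 0.04 (adjusted p = 0.853). The call was also lost on leaving out wild-type library 1, 2 or 3 or knockout library 1 or 2, with log2 fold changes from 0.31 to 0.45 and adjusted p from 0.0589 to 0.137.

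**Figure D1:**
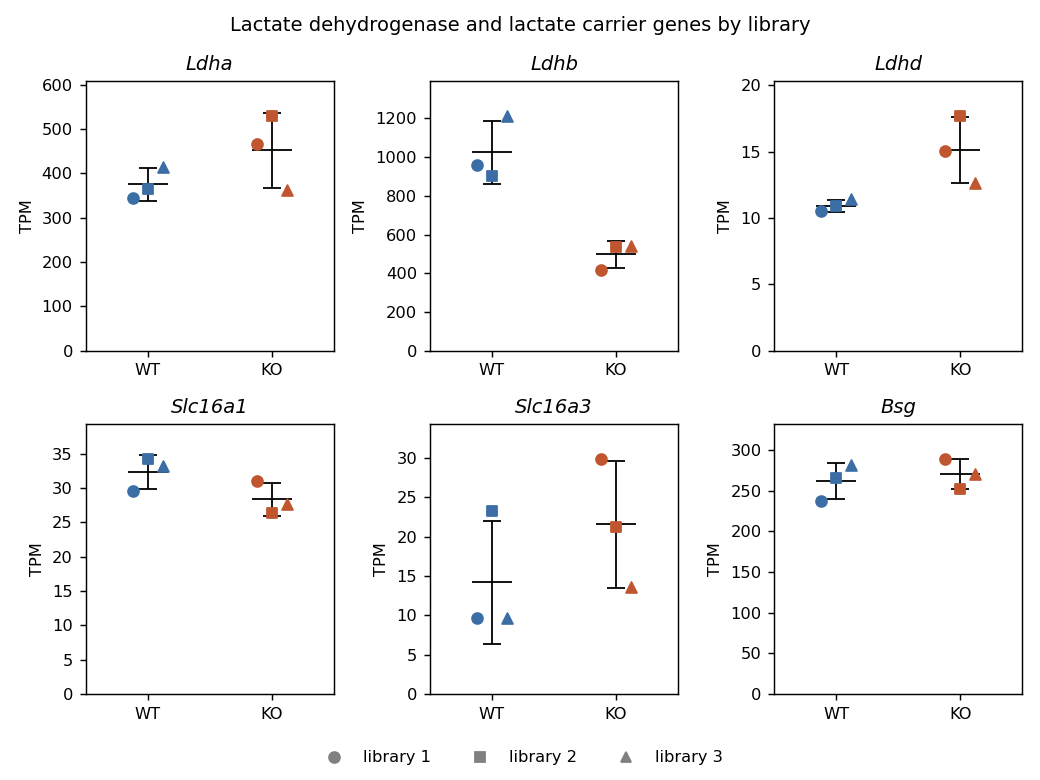
TPM of the 6 genes in the 3 wild-type (WT) and 3 knockout (KO) libraries; symbols are libraries, long bars the mean and whiskers 1 SD, and each axis starts at 0. Ldhb is lower in each knockout library (418 to 538 TPM) than in any wild-type library (904 to 1211 TPM), and the groups of Ldha, Slc16a1, Slc16a3 and Bsg overlap.

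Among the carriers and their partner, no change passed the test on the deposited scale. Slc16a1 (ENSMUSG00000032902, protein coding, chr3:104638668-104658462, plus strand) was at 29.5, 34.1 and 33.2 TPM in wild type and at 31.0, 26.4 and 27.7 TPM in knockout. Knockout library 1 lay within the wild-type range and the other knockout libraries lay below it. The log2 fold change was -0.18 (SE 0.14, 95% interval -0.49 to 0.13) with an adjusted p of 0.306. Relative to the bulk of genes it was lower: the value was -0.58 after trimmed-mean rescaling (adjusted p = 0.00380), -0.47 after quantile normalization (adjusted p = 0.0105) and -0.38 with mitochondrially encoded genes left out of the scale (adjusted p = 0.0236).

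Slc16a3 (ENSMUSG00000025161, protein coding, chr11:120948480-120960868, plus strand) varied most among the members relative to its mean. It was at 9.69, 23.2 and 9.66 TPM in wild type and at 29.8, 21.3 and 13.7 TPM in knockout. Wild-type library 2, the one with the high Myh4, was above knockout libraries 2 and 3. The log2 fold change of 0.62 (SE 0.32, 95% interval -0.08 to 1.33) had an adjusted p of 0.137. It was 1.02 without wild-type library 2 (adjusted p = 0.0136) and 0.90 without knockout library 3 (adjusted p = 0.0398), so whether it passed depended on single libraries. The value was lower on other settings: 0.37 without knockout library 1 (adjusted p = 0.43), 0.23 after trimmed-mean rescaling (adjusted p = 0.687) and 0.28 after quantile normalization (adjusted p = 0.611). Without wild-type library 1 or 3 it was 0.43 and 0.42.

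Bsg (ENSMUSG00000023175, protein coding, chr10:79704491-79711969, plus strand) was at 238, 266 and 282 TPM in wild type and at 289, 252 and 271 TPM in knockout. The groups overlapped, and the log2 fold change was 0.05 (SE 0.15, 95% interval -0.27 to 0.36, adjusted p = 0.805). It was -0.36 after trimmed-mean rescaling (adjusted p = 0.0242) and -0.10 after quantile normalization (adjusted p = 0.462). Bsg transcripts were more abundant than those of both carriers together in each library, in which Slc16a1 and Slc16a3 summed to 39.2 to 57.3 TPM in wild type and 41.3 to 60.9 TPM in knockout.

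In all, 1 of the 6 genes was called higher (Ldhd) and 1 lower (Ldhb) on the deposited scale, against 36.3% and 2.92% of all genes. After trimmed-mean rescaling none was higher and 3 were lower (Ldhb, Slc16a1 and Bsg), against 13.8% and 14.4%. Ldhb was the member called lower on each of the 4 scales.

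**Figure D2:**
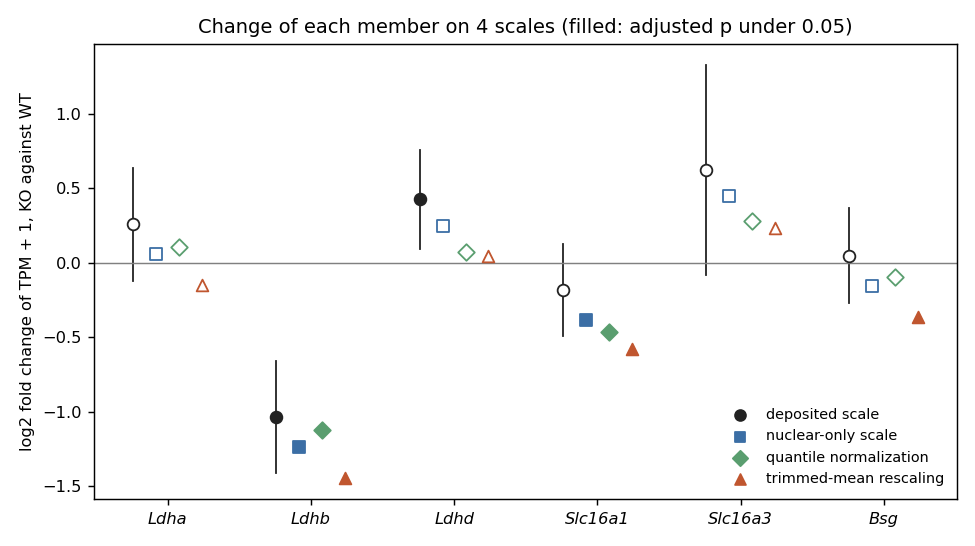
Log2 fold change of each gene, knockout (KO) against wild type (WT), on 4 scales; lines are 95% intervals on the deposited scale and filled symbols have an adjusted p under 0.05. Ldhb stays near or below -1 on each scale, Ldhd falls from 0.42 to 0.04 and Slc16a1 goes from -0.18 to -0.58 with trimmed-mean rescaling.

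Ratios of 2 genes in one library do not depend on the scale of that library, and 6 ratios were compared. The ratio of Ldha to Ldhb was 0.360, 0.404 and 0.343 in wild type and 1.11, 0.986 and 0.672 in knockout. It was higher in each knockout library than in any wild-type library, by a log2 difference of 1.30 (SE 0.23), or 2.45-fold. An exact permutation test gave a two-sided p of 0.1, the smallest possible with 3 against 3, and 0.2 after Benjamini-Hochberg adjustment over the 6 ratios. Leaving out each library in turn gave log2 differences from 1.14 to 1.51.

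As a share, Ldhb made up 73.5%, 71.2% and 74.4% of the summed Ldha and Ldhb level in wild type and 47.3%, 50.4% and 59.8% in knockout. The means were 73.1% ± 1.65 and 52.5% ± 6.51 (SD, n = 3 each). Wild-type libraries were close to each other and knockout libraries were spread more widely, with library 3 the nearest to wild type. The ratio of Ldhd to the summed Ldha and Ldhb was also without overlap, higher in knockout by 1.01 on the log2 scale (SE 0.12; exact permutation p = 0.1, adjusted 0.2). The level of Ldhb enters both of these ratios.

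The ratio of Slc16a3 to Slc16a1, the transcripts of the export and uptake carriers, was 0.328, 0.680 and 0.291 in wild type and 0.961, 0.806 and 0.494 in knockout. Wild-type library 2 was above knockout library 3, so the groups overlapped. The log2 difference was 0.85 (SE 0.48; exact permutation p = 0.2, adjusted 0.3), and leaving out wild-type library 2 gave 1.23, or knockout library 1 gave 0.65.

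The ratio of Slc16a1 to Bsg had the narrowest spread. It was 0.124, 0.128 and 0.118 in wild type and 0.108, 0.105 and 0.102 in knockout, lower in each knockout library by -0.24 on the log2 scale (SE 0.04; exact permutation p = 0.1, adjusted 0.2). The ratio of Slc16a3 to Bsg overlapped between groups (log2 difference 0.62, SE 0.52; exact permutation p = 0.3, adjusted 0.36). So did that of both carriers together to Bsg (0.06, SE 0.21; exact permutation p = 0.9).

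**Figure D3:**
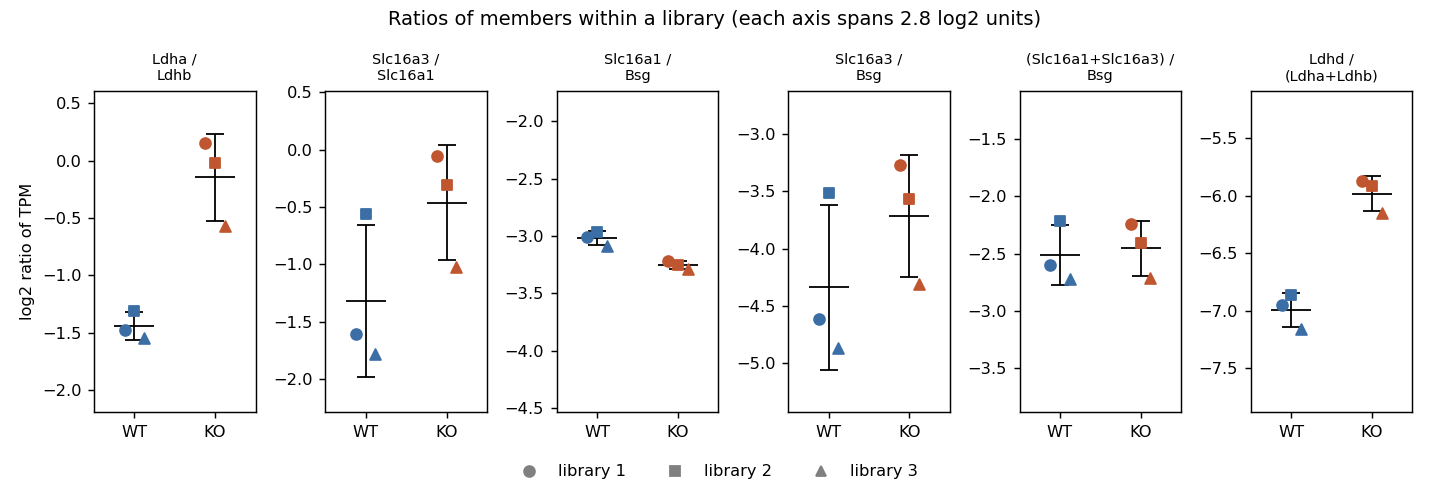
Log2 ratios of TPM within each wild-type (WT) and knockout (KO) library; symbols are libraries, long bars the mean, whiskers 1 SD, and each axis spans the same number of log2 units. Knockout libraries lie above wild type for Ldha to Ldhb and for Ldhd to the sum of both, below it for Slc16a1 to Bsg, and overlap it in the other 3 ratios.

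Fibre-type genes were set beside these values because the A and B subunits and both carriers differ between fibre types. None of the 7 slow-fibre genes was called on the deposited scale, where 36.3% of all genes were higher and 2.92% lower. After trimmed-mean rescaling 3 of them were lower, against 14.4% of all genes. Of the 9 fast-fibre genes only Myh4 was called, higher on both scales, where 36.3% and 13.8% of all genes were higher. Myh4 was at 238, 580.1 and 346 TPM in knockout. Ldhb per 1000 TPM of the slow-fibre list was 47.6, 51.3 and 47.3 in wild type and 21.2, 29.7 and 24.7 in knockout, a log2 difference of -0.96 (SE 0.15; exact permutation p = 0.1, adjusted 0.3 over 3 such ratios). On the deposited scale the log2 fold change was -1.04 for Ldhb, beside a median of -0.04 for the slow-fibre genes. After trimmed-mean rescaling these values were -1.45 and -0.45. The part of fibre type in the fall of Ldhb was not tested.

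Ldha per 1000 TPM of the fast-fibre list overlapped between groups, with a log2 difference of 0.08 (SE 0.23; exact permutation p = 0.8). Slc16a3 on the same footing was 0.389, 0.799 and 0.370 in wild type and 1.05, 0.709 and 0.423 in knockout. The log2 difference of 0.49 (SE 0.52; exact permutation p = 0.4) was within the spread. In bulk muscle, fewer cells of a type and less RNA per cell cannot be told apart.

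Markers of some other cell types also moved with the genotype. Of the adipocyte, red blood cell, Schwann cell and smooth muscle cell genes tested, none was called on the deposited scale. On that scale 36.3% of all genes were higher and 2.92% lower. After trimmed-mean rescaling 2 of the Schwann cell genes were lower, against 14.4% of all genes, and none of the other 3 lists had a call. Of the 6 macrophage genes, Adgre1 passed the filter on low values through the knockout libraries alone and was not counted as a change. The others were all higher on both scales, where 36.3% and 13.8% of all genes were higher. The 6 summed to 28.5 to 33.0 TPM in wild type and 122.6 to 158.4 TPM in knockout, of which Adgre1 gave at most 2.44 TPM. All 5 fibroblast genes were also higher on both scales, with sums of 192.9 to 193.9 TPM and 457 to 584 TPM. Of the 5 endothelial genes 4 were higher, against 36.3% of all genes, and Kdr was lower, with sums of 71.5 to 79.0 TPM and 143 to 162 TPM. After trimmed-mean rescaling 3 endothelial genes were higher, and Cdh5 was at 0.06 (adjusted p = 0.722) against 0.46 before. The part of these cells in the values of Ldha, Ldhb, Ldhd, Slc16a1, Slc16a3 and Bsg was not tested.

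Across the 6 libraries, the levels of Ldha and Ldhd ran together (Pearson r = 0.91 of log2 levels) and those of Ldhb and Ldhd ran opposite (r = -0.78), as did Ldhb and Slc16a3 (r = -0.70). Slc16a1 and Slc16a3 showed no common course (r = 0.01). These values describe 6 points that share 2 genotypes and the library scale. Among 4643 genes with a mean of at least 10 TPM, the patterns most like Ldhb were those of Bdh1 (r = 0.998), Uqcrc1 (0.994) and Etfdh (0.993), each lower in all knockout libraries. Bdh1, a ketone body enzyme, was at 119 to 144 TPM in wild type and 69.4 to 80.0 TPM in knockout.

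The patterns most like Ldha were those of Cpe (r = 0.986), Map4k5 (0.965) and Myl1 (0.962), and those most like Ldhd were Ctsf (0.984), Nfib (0.982) and Cetn3 (0.982). For Slc16a1 they were Mapk1ip1 (0.962), Lpcat3 (0.943) and Amy1 (0.943), and for Slc16a3 Ppp1r3a (0.962), Tnik (0.955) and Rnf141 (0.946). Those of Bsg were Sar1a (0.977), Pcmt1 (0.976) and Lipe (0.976). A search among so many genes over 6 points can find such values by itself, and nothing is read from them.

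The genes that take up the products of lactate dehydrogenase were next. Pyruvate enters mitochondria through the carrier made of Mpc1 and Mpc2 and is then oxidised by the pyruvate dehydrogenase complex. With Pcx, which encodes pyruvate carboxylase, these made a list of 8 genes. Like the other lists, it was chosen with earlier results of these data known, so its counts are not an independent comparison. On the deposited scale 4 of the 8 were called lower, against 2.92% of all genes, and none was called higher. After trimmed-mean rescaling 7 were lower, against 14.4% of all genes. Pcx was called on neither scale (log2 fold change 0.29, and -0.08 after rescaling). The median log2 fold change was -0.40 on the deposited scale, against 0.33 for all genes. The count lower was 2 without knockout library 3, and 1 when wild-type library 2 and knockout library 1 were both left out.

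Mpc2 was at 326, 440 and 480 TPM in wild type and at 203, 281 and 201 TPM in knockout, with no overlap (log2 fold change -0.86, SE 0.19, adjusted p = 0.00508). Pdhx, the component that binds the E3 enzyme to the complex, had a log2 fold change of -0.60 (adjusted p = 0.00716). Dlat, the acetyltransferase core, had one of -0.60 as well (adjusted p = 0.0172). Dld, the E3 enzyme, was the fourth, at -0.49 (adjusted p = 0.0197).

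Shuttles that return NADH electrons from the cytosol to mitochondria compete with lactate dehydrogenase for NADH, and transaminases exchange pyruvate and alanine. Of 10 such genes tested of 11 listed, 3 were lower and none higher, and 7 were lower after trimmed-mean rescaling, where 2.92% and 14.4% of all genes were lower. Mdh1, the cytosolic malate dehydrogenase, was at 724, 669 and 848 TPM in wild type and at 372, 487 and 431 TPM in knockout. No knockout library reached the wild-type range (log2 fold change -0.80, SE 0.16, adjusted p = 0.00319). Gpt, an alanine transaminase, fell by 0.87 on the log2 scale (adjusted p = 0.00486), and Got1, the cytosolic aspartate transaminase, by 0.53 (adjusted p = 0.0193).

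Carbonic anhydrases help to buffer the protons carried with lactate. Of the listed genes, the carbonic anhydrase genes Car4 and Car2 gave the steepest falls. Car4, a membrane-bound form, was at 7.84, 12.5 and 10.1 TPM in wild type and at 0.961, 1.62 and 1.83 TPM in knockout. All knockout libraries were far below wild type (log2 fold change -2.17, SE 0.19, adjusted p = 1.17e-05). Car2, a cytosolic form, had a log2 fold change of -1.64 (adjusted p = 0.000118). After trimmed-mean rescaling the values were -2.47 for Car4 (adjusted p = 0.000168) and -1.99 for Car2 (adjusted p = 0.000143). Of all genes 2.92% were lower on the deposited scale and 14.4% after rescaling. Car14, also a carbonic anhydrase gene, was not called on the deposited scale (log2 fold change -0.07, adjusted p = 0.762), nor was Slc4a4.

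Slc16a7, which encodes the lactate carrier MCT2, was below 1 TPM in all libraries, at 0.111 to 0.759 TPM, and was not tested.

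Embigin, from Emb, is the other partner protein of MCT1 and of MCT2. It was at 0.581, 0.380 and 0.363 TPM in wild type and at 2.06, 1.28 and 1.87 TPM in knockout, so it passed the filter on low values through the knockout libraries alone, and its levels are given with no test. Nptn, which encodes the related neuroplastin, was not called (0.24, adjusted p = 0.178).

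Of the genes that make D-lactate from methylglyoxal, Glo1 and Hagh, neither was called on the deposited scale. Glo1 was at 56.3 to 66.5 TPM in wild type and 57.3 to 70.1 TPM in knockout (log2 fold change 0.04, adjusted p = 0.846), and at -0.37 after trimmed-mean rescaling (adjusted p = 0.0156). Without wild-type library 3, 1 gene of this list was called higher, Hagh. Ldhc, the testis form of lactate dehydrogenase, was listed at 0 in each library.

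Of 7 transcription regulators of these genes, 2 were higher and 2 lower, and after trimmed-mean rescaling 1 was higher and 4 were lower. The deposited scale had 36.3% of all genes higher and 2.92% lower, and the rescaled one 13.8% and 14.4%, so the number of regulators higher was near or below the share of all genes. Myc was at 1.02, 1.42 and 1.43 TPM in wild type and at 3.57, 3.52 and 3.37 TPM in knockout (log2 fold change 0.98, SE 0.14, adjusted p = 0.000267). Arnt, the partner of the HIF proteins, had a log2 fold change of 0.44 (adjusted p = 0.0297), and 0.05 after rescaling. Esrra, the oestrogen-related receptor alpha, was at 67.6 to 81.7 TPM in wild type and 46.9 to 54.1 TPM in knockout (log2 fold change -0.55, SE 0.14, adjusted p = 0.0121).

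Epas1, which encodes HIF-2 alpha, was also lower at -0.39 (adjusted p = 0.0448). Hif1a was not called on the deposited scale, at 8.90 to 10.3 TPM in wild type and 9.54 to 9.83 TPM in knockout (adjusted p = 0.888). It was lower at -0.35 after trimmed-mean rescaling (adjusted p = 0.0276) and at -0.35 after quantile normalization (adjusted p = 0.0316). With mitochondrially encoded genes left out of the scale, Hif1a was not called (-0.17, adjusted p = 0.268). Leaving out wild-type library 1 or 2 or knockout library 1 left 1 regulator higher and 1 lower. Leaving out wild-type library 3 gave 2 and 1, and leaving out knockout library 3 gave 1 and none. The levels are of transcripts and say nothing of the activity of these factors or of lactate itself, which was not measured here.

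**Figure D4:**
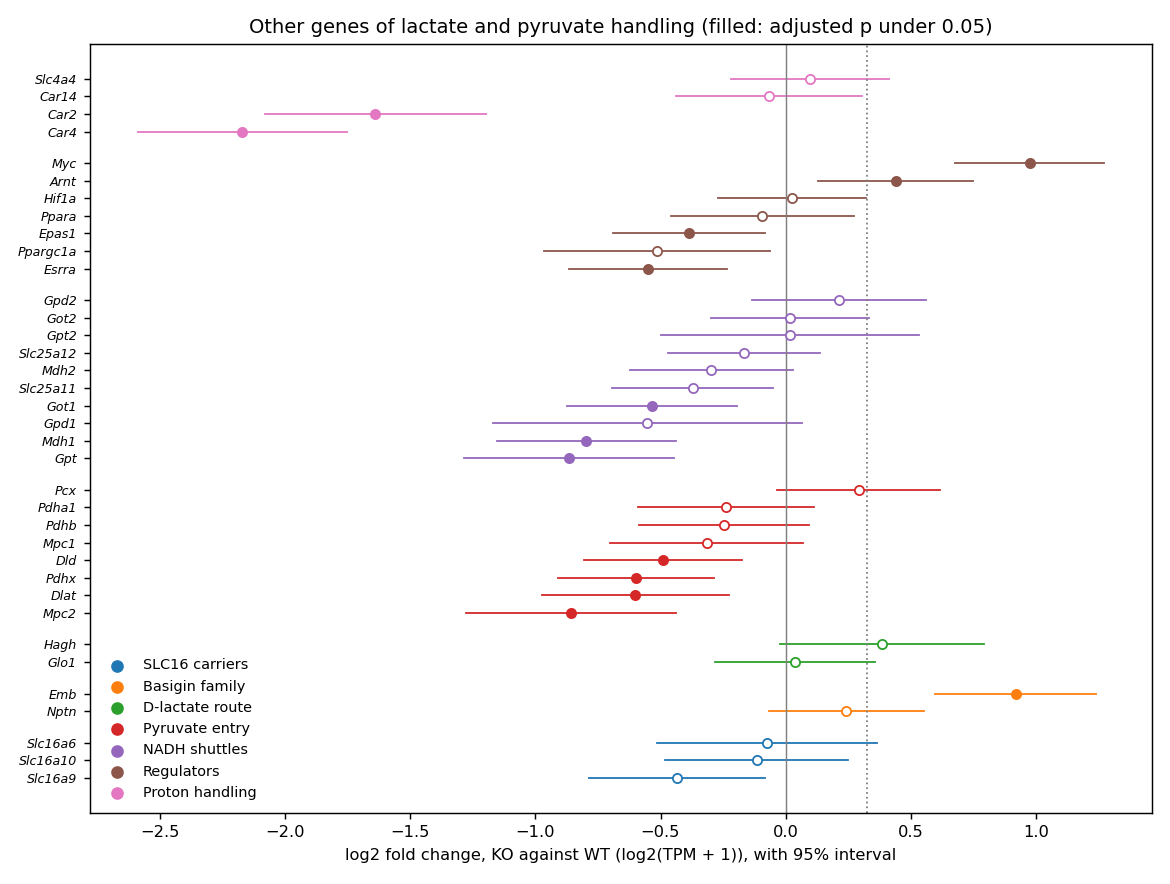
Log2 fold change, knockout (KO) against wild type (WT), on the deposited scale with 95% intervals for genes of 7 lists around lactate and pyruvate; colours are lists, filled symbols have an adjusted p under 0.05, the dotted line marks the median of all genes, 0.33, and Emb passed the filter on low values through knockout libraries alone. Car4 (-2.17) and Car2 (-1.64) lie furthest to the left, and the called genes of pyruvate entry and of the NADH shuttles are all below 0.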

How the data were processed

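The deposited values were taken as TPM from the values alone, which are not whole and total 843194 to 872482 per library; no label names the unit, TPM keeps no depth, and no counting interval is given. Per the labels' protocols, RNA was extracted in TRIzol and made into libraries by a NEBNext Ultra kit. The submitters' processing notes name STAR 2.5.3a and kallisto 0.43.0 but give no role for either. Absent genes were set to 0. The 11056 genes that reached 1 TPM in 3 or more libraries were tested with limma 3.58.1 (R 4.3.3, intensity trend, Benjamini-Hochberg over all genes, called at 0.05) on the log2(TPM + 1) scale, on which changes of low genes are understated. Ratios were compared with exact permutation tests (scipy 1.17.1). The rescaling trimmed 30% of ratios and 5% of levels. The members and lists were chosen with earlier results of these data known. Named were all members, Cavin1, up to 3 called genes per list by adjusted p (or the highest in level), and 3 genes most like each member. A gene that this rule named is not reported here. Car14, Slc4a4, Dld, Pcx, Hagh, Nptn, Slc16a7, Ldhc, Epas1 and Hif1a were named after their values were seen, and the 3 ratios to fibre lists were added then. Promoter sequences are from RefSeq (GRCm38.p6), and gene positions from GENCODE. Alternatives were 3 other scales, no intensity trend, no filter or one of 10 TPM, pseudocounts of 0.1 and 5, the replicate block and left-out libraries. The test was tried on simulated data.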

Additional observations from a re-analysis of the deposited data

How the results depend on the processing

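Ldhb kept its direction and its call under all 16 alternatives. The 6 ratios moved by less than the spread between replicates under all 9 of theirs, but this was largely fixed beforehand. The replicate block cannot move a mean difference, and leaving out a single library cannot move it by that much. The log2 difference of Ldha to Ldhb was 1.14 without knockout library 1 and 1.51 without knockout library 3. That of both carriers together to Bsg fell from 0.06 to -0.05 without wild-type library 3 or knockout library 1. Ldha was -0.15 with trimmed-mean rescaling. Ldhd was no longer called at 0.072 with quantile normalization, 0.043 with trimmed-mean rescaling, 0.25 on the nuclear-only scale, 0.42 with no filter and 0.42 when wild-type library 2 and knockout library 1 were both left out; leaving out one library gave 0.31 to 0.54. Slc16a1 was called lower at -0.47, -0.58 and -0.38 on those 3 scales. Slc16a3 was called at 0.76 with both of these left out, and leaving out one gave 0.37 to 1.02. Bsg was -0.10, -0.36 and -0.15 on the 3 scales, and -0.021 to 0.10 with one library left out, being below 0 without wild-type library 1 or knockout library 1. Members called higher were 0 on each of the 3 scales and with no filter, and 0 to 2 with one library left out. Members called lower were 2 with quantile normalization, 3 with trimmed-mean rescaling and 2 on the nuclear-only scale. The cause was not tested.

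Same-numbered libraries did not deviate together (correlations 0.03, -0.01 and 0.04). No pairing by number was seen, though so few libraries cannot exclude one. With the replicate block Ldhd stayed at 0.42 (adjusted p = 0.0562), which left 0 members higher; no other member's call changed.

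Precision is limited by 3 libraries a group, an unknown read depth and an inferred unit.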
